A study of Mus musculus with 15 samples.

Results

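The Hsp70 and Hsp90 family chaperones examined here were 10 genes out of 32657 listed in each count table. They were Hsp90aa1, Hsp90ab1, Hspa4, Hspa4l, Hspa8, Hsph1 and Dnaja1, whose proteins work in the cytosol, Hsp90b1 and Hspa5, whose proteins work in the endoplasmic reticulum (ER), and Hspa9, whose protein works in mitochondria. The genes were taken by symbol and had been chosen by their log2 fold changes between knockout and control libraries, so those differences, and the number of members called in them, are given for them as a description and not as evidence. All 10 had counts in each of the 15 libraries, from 1442 to 51065 reads per gene and library, and all 10 passed the filter on low counts in every comparison.

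The study asked how loss of the serotonin receptor 5-HT4R from hippocampal neurons changed gene expression in the dentate gyrus of mice aged 8 to 12 weeks. Control animals (WT) carried Drd3-Cre KI198 and Rosa26-fsTRAP, and conditional knockout animals (cKO) carried both of these alleles together with Htr4-Floxed, so Cre and the ribosome tag EGFPL10a were present in both genotypes. Libraries came from ventral dentate gyrus (vDG) as RNA on tagged ribosomes (IP) and as whole-tissue RNA (input), and from dorsal dentate gyrus (dDG) as input. Each of these 3 kinds of library had 3 WT and 2 cKO pools, and the sample records gave 3 mice per IP pool and 2 per input pool, whereas the study's methods describe 1 male and 1 female per pool, a difference that was not resolved. By those methods input RNA was a part of the lysate taken before the IP, so IP and input libraries can share animals. In this line Cre is driven by a Drd3 transgene and reaches mature granule cells and hilar mossy cells of the dentate gyrus. In the CA fields it reaches only a part of the pyramidal neurons. The sample records called the inputs cortex.

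Libraries held 19039295 to 30451430 reads on genes. The defining granule cell gene Prox1 stood at 623 to 1040 CPM (counts-per-million of reads on genes, TMM-scaled) in every library, and the ventral mossy cell marker Calb2 stood at 56.6 to 84.1 CPM in the vDG libraries against 1.30 to 2.98 in the dDG libraries. Htr4 itself, summed over all exons, was higher in the cKO libraries, with 26.7 and 29.8 CPM in cKO vDG IP against 13.6 to 16.0 in WT vDG IP. The deletion removes exon 5 alone, so this sum over the gene does not check it. Replicate libraries of a group all differed by more than sampling noise, and the p-values below measure the spread between pools.

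Molecular chaperones help proteins reach and keep their folded shape. Hsp70 proteins bind short exposed stretches of unfolded chains in a cycle driven by ATP, which J-domain partners start and nucleotide exchange factors end, and Hsp90 proteins take over clients such as kinases and steroid receptors at a later stage. In neurons Hsc70, the product of Hspa8, also strips clathrin from synaptic vesicles. Some cytosolic genes of this kind are classical targets of heat shock factor Hsf1, while the ER members are induced by the unfolded protein response.

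The genes lie on different chromosomes (GENCODE M21 annotation, mm10). Hspa8 spans chr9:40800984-40810087 on the plus strand and Hsp90ab1 spans chr17:45567775-45573271 on the minus strand. Hspa5 lies at chr2:34771970-34777547 and Hsp90b1 at chr10:86690209-86705509. Exons of Hspa8 overlap 3 small nucleolar RNA genes, and exons of Dnaja1 and Hsp90b1 overlap genes on the other strand, so reads in those stretches could not all be given to the chaperone. Copies elsewhere in the genome also bear on the counts. Of all 75-base stretches in the annotated transcripts, 42.8% in Hsp90aa1, 33.0% in Hspa8 and 18.4% in Dnaja1 occurred unchanged in a transcript of another gene, mostly processed pseudogenes, whereas none did in Hspa4, Hsph1 and Hspa5. Reads that aligned to several places were left out of the counts, so levels of the former 3 genes are uncertain.

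The 250 bases before the RefSeq start of the genes (GRCm38.p6) were read for the letters of stress elements. RefSeq windows were at hand for 6 of the 10 genes and not for Hsp90aa1, Hsp90ab1, Hspa8 and Hspa9. The ER stress response element, searched on both strands as CCAAT, then 9 bases of any kind, then CCACG, was found before both ER genes, and in 0.113% of all 32851 windows. It occurred once before Hspa5, beginning 65 bases before the start, and 2 times before Hsp90b1, once on each strand. For each gene with a match in its windows, 1 window is printed 5′ to 3′ on the gene's strand, with the matched letters in capitals. Hspa5 is chr2:34771840-34772089 on the plus strand and Hsp90b1 is chr10:86705445-86705694 on the minus strand.
Hspa5: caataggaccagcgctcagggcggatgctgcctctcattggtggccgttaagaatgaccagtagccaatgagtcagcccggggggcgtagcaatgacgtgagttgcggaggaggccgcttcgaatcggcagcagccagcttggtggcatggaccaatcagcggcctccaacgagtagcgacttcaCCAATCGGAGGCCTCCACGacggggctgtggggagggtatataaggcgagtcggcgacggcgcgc
Hsp90b1: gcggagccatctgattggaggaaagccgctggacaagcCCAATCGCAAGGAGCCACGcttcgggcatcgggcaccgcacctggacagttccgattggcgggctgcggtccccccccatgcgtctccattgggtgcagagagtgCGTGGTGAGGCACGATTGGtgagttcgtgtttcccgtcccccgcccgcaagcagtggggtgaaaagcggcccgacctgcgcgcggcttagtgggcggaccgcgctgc

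Heat shock elements are runs of inverted GAA units. A pair of such units, searched as GAANNTTC or TTCNNGAA (each reads the same on both strands), is common, with 6.69% and 7.17% of all windows holding the one or the other. Among the members it was found before Dnaja1 (chr4:40722218-40722467, plus strand, the most upstream of 3 listed starts) and before Hsph1 (chr5:149636337-149636586, minus strand; the window of its other listed start holds the same match), and not in the windows of Hspa4, Hspa4l, Hspa5 and Hsp90b1.
Dnaja1: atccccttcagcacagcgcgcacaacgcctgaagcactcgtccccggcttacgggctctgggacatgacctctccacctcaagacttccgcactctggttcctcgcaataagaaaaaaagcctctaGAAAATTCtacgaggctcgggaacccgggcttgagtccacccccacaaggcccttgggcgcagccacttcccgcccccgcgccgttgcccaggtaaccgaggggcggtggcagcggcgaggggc
Hsph1: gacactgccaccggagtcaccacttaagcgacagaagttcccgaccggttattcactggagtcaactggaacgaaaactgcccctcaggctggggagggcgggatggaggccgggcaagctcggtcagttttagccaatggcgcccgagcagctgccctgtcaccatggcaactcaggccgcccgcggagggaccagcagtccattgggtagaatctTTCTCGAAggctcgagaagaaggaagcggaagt

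All 10 members were well expressed in these neurons and tissues. Per kilobase of exon, Hsp90ab1, the constitutive cytosolic Hsp90, had the highest level, with a mean of 444.4 CPM per kb over the 15 libraries, followed by Hspa8 at 213 and Hsp90aa1, the stress-responsive cytosolic Hsp90, at 171. Hsph1, an Hsp110 protein that recharges Hsp70, stood at 73.7 CPM per kb and Hsp90b1, the ER Hsp90 known as GRP94, at 68.4. The remaining members were lower, with Hspa4 at 44.1, Dnaja1 at 35.9, Hspa5 at 30.6, Hspa9 at 22.9 and Hspa4l at 8.84 CPM per kb.

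The order of the 6 groups was much alike from gene to gene. WT vDG IP had the highest mean for all 10 members, and WT vDG input came next for 9 of them, Hspa4l being the exception. The cKO vDG input group was lowest for 8 members, while for Hspa4l and Dnaja1 the lowest was WT dDG input. Between these ends the groups ran into each other. Of the 50 pairs of groups that were neighbours in a gene's order, 33 had overlapping libraries and 17 did not. Together the 10 genes took 0.548% to 0.661% of the reads in WT vDG IP, 0.361% and 0.433% in cKO vDG IP, 0.475% to 0.563% in WT vDG input, 0.296% and 0.364% in cKO vDG input, 0.371% to 0.422% in WT dDG input and 0.351% and 0.435% in cKO dDG input.

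**Figure D1:**
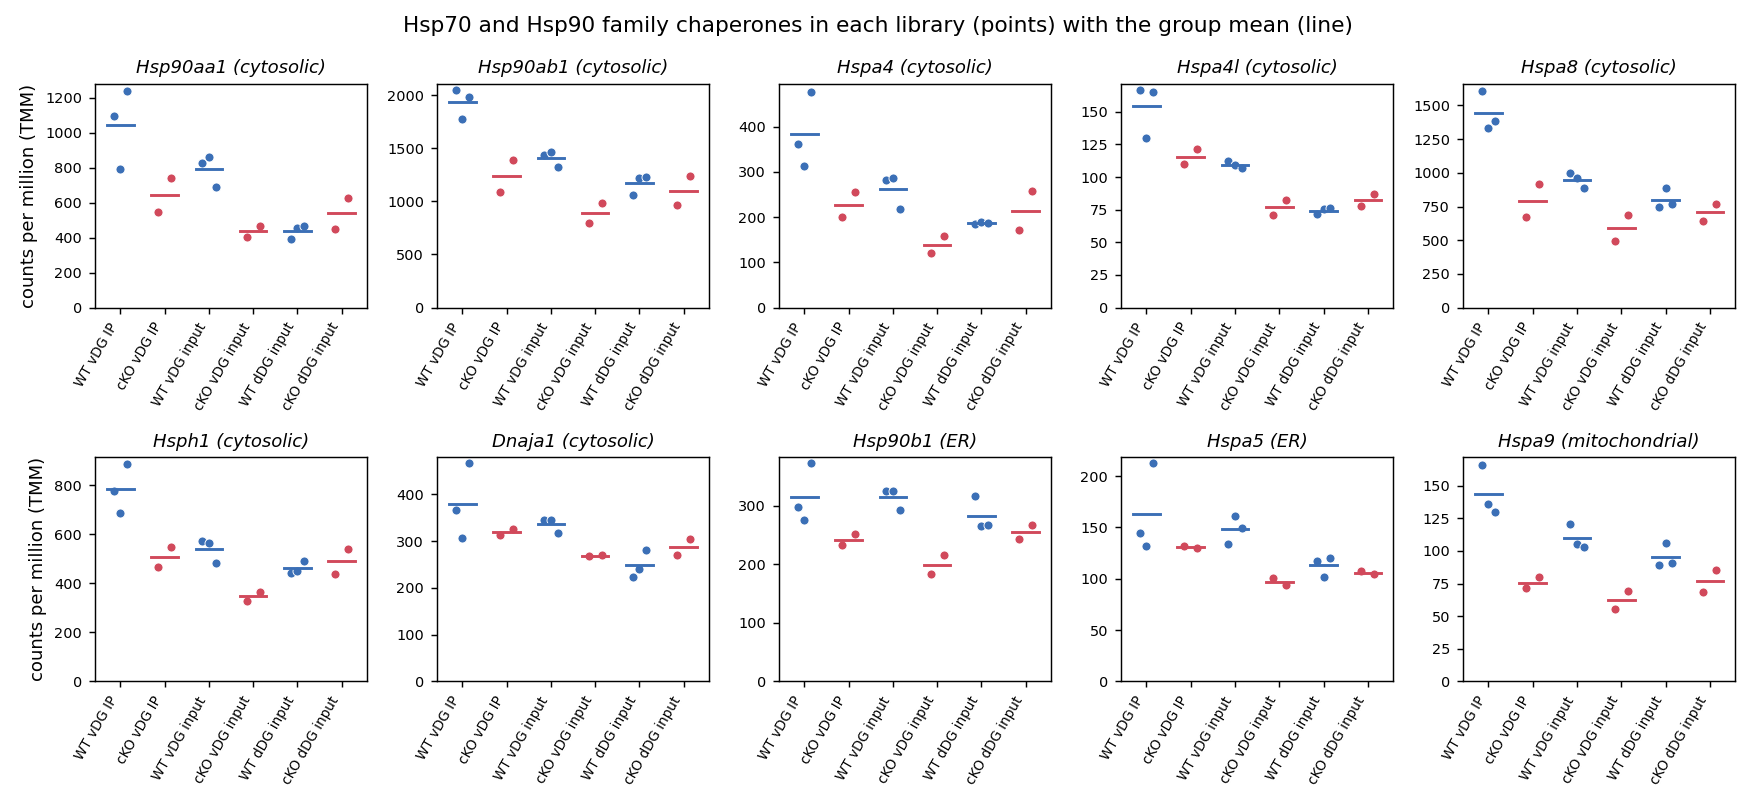
Level of each chaperone gene in every library (points, TMM-scaled CPM, linear axes from 0) and the mean of each group (lines), with WT in blue and cKO in red. In the vDG inputs every cKO point lies below every WT point for all 10 genes, while WT and cKO points of the dDG inputs mostly intermingle.

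In the vDG the members were lower in cKO than in WT libraries, on ribosomes and in whole tissue alike. In the IP all 10 were lower, with a median log2 fold change of -0.60 (range -0.89 to -0.21) against 0.00 over all 14300 genes tested. Groups did not overlap for 8 of the 10, all but Dnaja1 and Hspa5, where 18.3% of all genes were separated in this direction. At a false discovery rate (FDR) under 0.1, 2 members were called lower, Hspa8 and Hspa9, where 0.35% of all genes were called lower and 0.0699% higher. In the vDG input all 10 were lower without overlap (17.1% of all genes), the median was -0.67 (range -0.93 to -0.33) against 0.01 over all 15786 genes, and 9 were called lower at FDR under 0.05, all but Dnaja1 (2.33% of all genes lower, 0.108% higher). These counts restate how the genes were picked and carry no weight of their own. The number of calls rested on single pools. Without WT vDG IP replicate 2 no member was called in the IP and without WT vDG IP replicate 1 there were 5, and without cKO vDG input replicate 1 no member was called in the vDG input, while the median stayed at -0.56. In bulk RNA, fewer cells of a type and less RNA per cell cannot be told apart.

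Hspa8 encodes Hsc70, the main cytosolic Hsp70 of neurons. In vDG IP its level was 1606, 1335 and 1385 CPM in the 3 WT pools and 671 and 917 CPM in the cKO pools, a log2 fold change of -0.83 (SE 0.15). In vDG input it was 1000, 960 and 887 CPM in WT and 494 and 687 CPM in cKO (-0.70, SE 0.14). The lowest WT value thus stood above the highest cKO value in both fractions. Its close partner Hsph1 measured 777, 686 and 885 CPM in WT IP against 465 and 546 in cKO IP (-0.59, SE 0.14), and 574, 562 and 484 CPM in WT input against 326 and 366 in cKO input (-0.65, SE 0.13).

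Hspa4 and Hspa4l belong, like Hsph1, to the Hsp110 branch that releases nucleotide from Hsp70. Hspa4 measured 362, 313 and 477 CPM in WT IP against 200 and 254 in cKO IP (-0.72, SE 0.17). In vDG input it had the largest decrease among the members, from 281, 287 and 218 CPM in WT to 120 and 158 in cKO (-0.93, SE 0.15). Without cKO vDG input replicate 1 Hspa4 gave -0.74 and Hsp90aa1 -0.77, so this rank rested on that pool. Hspa4l, the less abundant relative of Hspa4, measured 167, 130 and 165 CPM in WT IP against 110 and 121 in cKO IP (-0.38, SE 0.15). Its vDG input values were 112, 109 and 107 CPM in WT and 71.2 and 82.4 in cKO (-0.52, SE 0.13). The groups did not overlap in either fraction.

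Dnaja1, a J-domain protein that delivers clients to Hsp70, had the smallest differences in both fractions. In vDG IP it measured 366, 307 and 467 CPM in WT and 313 and 327 in cKO (-0.21, SE 0.16), and the groups overlapped. Without WT vDG IP replicate 3 its value was -0.05, the same as that of Hspa5. In vDG input the values were 345, 346 and 317 CPM against 268 and 270 (-0.33, SE 0.12), with no overlap.

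Of the cytosolic Hsp90 genes, Hsp90aa1 measured 1096, 792 and 1239 CPM in WT IP against 545 and 740 in cKO IP (-0.66, SE 0.18). Its vDG input values were 829, 860 and 689 CPM in WT and 406 and 468 in cKO (-0.87, SE 0.13). Hsp90ab1 measured 2045, 1773 and 1982 CPM in WT IP against 1084 and 1386 in cKO IP (-0.61, SE 0.14), and 1437, 1464 and 1328 CPM in WT input against 795 and 983 in cKO input (-0.68, SE 0.13). Both genes were therefore separated between genotypes in each vDG fraction.

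The ER members had smaller estimated differences between genotypes in the IP than in the input, but the gap between the fractions was called for neither gene. Hspa5, which encodes the ER Hsp70 BiP, measured 144, 132 and 212 CPM in WT IP and 132 and 130 in cKO IP (-0.27, SE 0.18), where only WT replicate 3 stood clearly above the cKO pools. In vDG input it was 134, 162 and 150 CPM in WT against 101 and 93.8 in cKO (-0.62, SE 0.13). Hsp90b1 measured 299, 276 and 373 CPM in WT IP and 234 and 251 in cKO IP (-0.34, SE 0.14), and 326, 325 and 293 CPM in WT input against 184 and 216 in cKO input (-0.67, SE 0.13).

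Hspa9 encodes mortalin, the mitochondrial Hsp70 that pulls imported proteins through the inner membrane. It had the largest decrease of all members in the IP, from 166, 136 and 130 CPM in WT to 71.3 and 80.2 in cKO (-0.89, SE 0.15). Without cKO vDG IP replicate 2 Hspa9 gave -0.98 and Hspa8 -1.07, so this rank rested on that pool. In vDG input Hspa9 fell from 121, 105 and 103 CPM to 55.4 and 69.3 (-0.83, SE 0.14).

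Set by compartment, the median log2 fold change in the IP was -0.61 for the 7 cytosolic members, -0.31 for the 2 ER members and -0.89 for Hspa9. The ER value rested on 1 pool, since without WT vDG IP replicate 3 Hspa5 gave -0.05 and Hsp90b1 gave -0.22. In vDG input the same medians were -0.68, -0.64 and -0.83, closer to each other. The difference between the fractions (cKO change in IP minus cKO change in input) was 0.34 (SE 0.19) for Hsp90b1 and 0.36 (SE 0.22) for Hspa5, the highest of the members, and ran from -0.12 to 0.23 for the other 8. The change by fraction called 0 of 16093 genes in either direction (0% higher, 0% lower), with 497 at an unadjusted p under 0.05 in edgeR and 0 called by DESeq2.

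**Figure D2:**
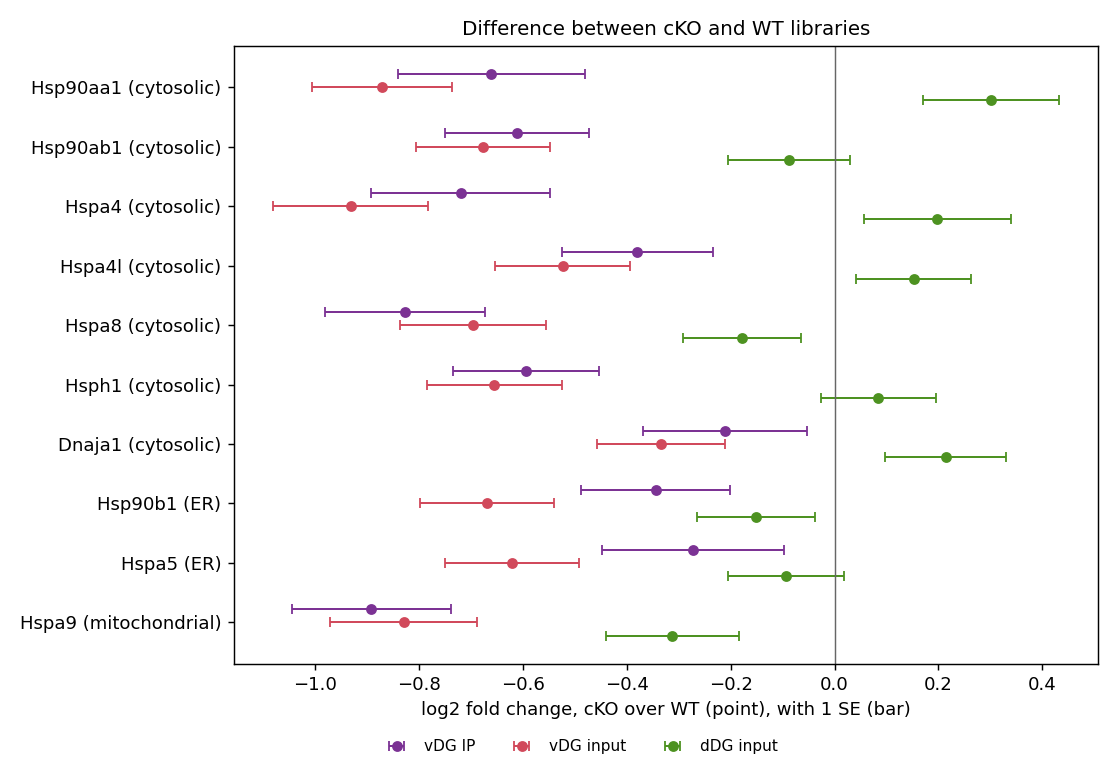
Log2 fold change of cKO over WT libraries (points) with 1 SE (bars) for each chaperone gene in the IP and the input of vDG and in the input of dDG. All vDG points lie left of 0, from -0.93 to -0.21, whereas dDG points lie on both sides, from -0.31 to 0.30.

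In the dDG input the members did not share a direction. Of the 10, 5 were higher and 5 lower in cKO, the median log2 fold change was 0.00 against -0.02 over all 15383 genes, and edgeR called 0 members at FDR under 0.05 (0.0065% of all genes higher, 0.026% lower). Over all genes 1881 had an unadjusted p under 0.05, and DESeq2 called 188 genes but 0 members. Hspa9 measured 89.6, 106 and 91.1 CPM in WT and 68.7 and 85.5 in cKO (-0.31, SE 0.13), the only member lower without overlap, where 15.5% of all genes were separated in this direction. Hspa4l measured 71.6, 75.2 and 76.1 CPM in WT and 78.1 and 87.0 in cKO (0.15, SE 0.11), the only member higher without overlap (13.9% of all genes). Hspa9 gave -0.16 without cKO dDG input replicate 1 and -0.48 without replicate 2, and Hspa4l gave 0.074 without replicate 2. Hsp90aa1 had the highest fold change, 0.30 (SE 0.13), with 394, 453 and 468 CPM in WT and 452 and 628 in cKO, and overlapped. For Hsp90aa1, Hspa4 and Hsph1 the upper cKO value came from replicate 2. Without that pool Hsp90aa1 dropped to 0.045, below Dnaja1 at 0.13, and Hspa4 and Hsph1 turned to -0.13 and -0.07. The cytosolic members had a median of 0.15, the ER members of -0.12.

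Summed levels of markers of other cell types were not the same in both genotypes. In vDG input 3 of 6 astrocyte markers, 1 of 7 CA pyramidal cell markers and 1 of 7 oligodendrocyte lineage markers were called lower and 1 of 4 tested choroid plexus markers higher, and in dDG input edgeR called no marker of any list. In vDG input the summed level of 6 astrocyte markers was 757 to 910 CPM in WT and 658 to 659 in cKO, that of 8 interneuron markers 451 to 525 and 388 to 395, and that of 6 microglia markers 23.0 to 36.9 and 15.0 to 21.5. The sum of 7 CA pyramidal cell markers was 524 to 599 CPM in WT and 465 to 479 in cKO. Single genes of these lists went both ways, 3 higher and 4 lower for CA pyramidal cells and 2 higher and 6 lower for interneurons. The sum of 12 granule cell markers was 2766 to 3135 CPM in WT and 3156 to 3212 in cKO. Its genes also went both ways, 5 higher and 7 lower in cKO with a median log2 fold change of -0.03 and 1 called lower. The 6 mossy cell markers overlapped (73.1 to 93.4 and 72.4 to 88.7). In vDG IP the granule cell sum was 3634 to 3680 CPM in WT and 3815 to 4035 in cKO, with 7 genes higher, 5 lower and none called. The interneuron sum there was 167 to 196 CPM in WT and 116 to 131 in cKO, and the astrocyte sum 112 to 157 and 88.9 to 106. Of the interneuron genes 6 of 6 tested were below 0 in cKO, with a median log2 fold change of -0.35. Among them 1 was called lower, where 0.35% of all genes were. The mossy cell sum overlapped in the IP (64.1 to 91.7 and 60.7 to 73.4 CPM), while 5 of 5 tested mossy cell genes were below 0 in cKO with a median log2 fold change of -0.59, none of them called. In dDG input, where the members shared no direction, the astrocyte sum was 737 to 745 CPM in WT and 577 to 678 in cKO, and the microglia sum 25.1 to 46.7 and 22.1 to 22.7. The CA pyramidal cell sum there was 167 to 270 CPM in WT and 280 to 313 in cKO, with 4 genes higher and 3 lower. For granule cells it was 4348 to 4714 and 3869 to 4243, with 4 genes higher and 8 lower. Choroid plexus markers summed to 39.6 to 157 CPM in WT and 23.1 to 28.4 in cKO, with 4 of 4 tested genes lower. The endothelial sums overlapped, with 5 of 5 genes lower. In vDG IP the choroid plexus marker Folr1 was at 0 in both genotypes and Clic6 was at 0 in cKO. No other marker of these lists was at 0 in those groups. The part of cell makeup in the chaperone differences was not tested.

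The members' mean levels were higher in vDG than in dDG input in WT and lower in cKO, though not all of these differences were called. Neither comparison had been used to pick the genes, but both hold the vDG input libraries whose genotype difference had, so their directions are not independent of that choice. In WT all 10 were higher in vDG input, with a median log2 fold change of 0.35 against -0.01 over all 15412 genes. Groups did not overlap for 6 of them (16.2% of all genes), and 5 were called at FDR under 0.05 (9.26% of all genes higher, 6.09% lower). In cKO all 10 were lower in vDG input, with a median of -0.32 against 0.01 over all 15505 genes. There 5 did not overlap (27.6% of all genes) and 3 were called lower (8.47% of all genes lower, 8.56% higher). For 3 members, Hspa4, Dnaja1 and Hspa5, vDG pools stood above all dDG pools in WT and below them all in cKO, as for 1.12% of the 15121 genes tested in both genotypes, an order that the choice of the members favours.

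Hsp90aa1 showed the largest ventral excess in WT, 829, 860 and 689 CPM in vDG against 394, 453 and 468 in dDG (log2 fold change 0.87, SE 0.12, edgeR FDR 5.35e-05). Its FDR stayed between 4.5e-12 and 0.000672 under all alternatives. In cKO vDG it had 406 and 468 CPM against 452 and 628 in dDG, and the groups overlapped (-0.32, SE 0.13, edgeR FDR 0.113).

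Among the Hsp110 genes, Hspa4 was higher in WT vDG, with 281, 287 and 218 CPM against 185, 188 and 186 in dDG (0.50, SE 0.12, edgeR FDR 0.00700). In cKO it was lower in vDG, with 120 and 158 CPM against 171 and 258 (-0.64, SE 0.16, edgeR FDR 0.00718). The ventral and dorsal pools of Hspa4 were thus separated in both genotypes, in opposite directions. Hspa4l was higher in WT vDG (0.57, SE 0.11, edgeR FDR 0.00111) and close to level in cKO, with 71.2 and 82.4 CPM in vDG and 78.1 and 87.0 in dDG (-0.12, SE 0.12, edgeR FDR 0.567). Hsph1 was the reverse, not called in WT (0.24, SE 0.11, edgeR FDR 0.157) and lower in cKO vDG, with 326 and 366 CPM against 438 and 539 (-0.51, SE 0.12, edgeR FDR 0.00517).

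Dnaja1 was higher in WT vDG, with 345, 346 and 317 CPM against 222, 240 and 282 in dDG (0.45, SE 0.11, edgeR FDR 0.0109), and so was Hspa5 (0.41, SE 0.11, edgeR FDR 0.0202). Hspa5 had 134, 162 and 150 CPM in WT vDG against 117, 102 and 120 in dDG. In cKO both genes were below the dDG pools without overlap but by small steps, -0.11 (SE 0.11, edgeR FDR 0.548) and -0.13 (SE 0.11, edgeR FDR 0.460). Hsp90b1 was called only in cKO, where vDG had 184 and 216 CPM and dDG had 244 and 266 (-0.37, SE 0.12, edgeR FDR 0.0321). The constitutive genes Hspa8 and Hsp90ab1 and the mitochondrial Hspa9 passed in neither genotype, with 0.21 to 0.28 in WT and -0.32 to -0.27 in cKO.

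The cKO calls rested on few pools, since no member was called without cKO dDG input replicate 2 and 7 were called without cKO vDG input replicate 2. With replicate numbers as a block, 7 members were called in cKO, but the cKO dDG pools are numbered differently in the sample titles (used here) and in the names of their deposited files, so which pools belong together is uncertain. In WT 3 to 5 members were called when a pool was left out. Cell makeup also differed between the regions, the 7 CA pyramidal cell markers summing to 524 to 599 CPM in WT vDG and 167 to 270 in WT dDG, and the granule cell markers to 2766 to 3135 and 4348 to 4714. The other lists with the most calls in WT were mossy cells (5 of 5 tested genes higher in vDG, 3 called, median 2.20), interneurons (7 of 8 higher, 4 called, median 0.55) and choroid plexus (4 of 4 tested lower, 3 called, median -2.22). In cKO their medians were 2.19, 0.50 and 0.21. In cKO the pyramidal sums were 465 to 479 and 280 to 313 CPM and the granule sums 3156 to 3212 and 3869 to 4243. The part of these differences in the chaperone values was not tested.

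**Figure D3:**
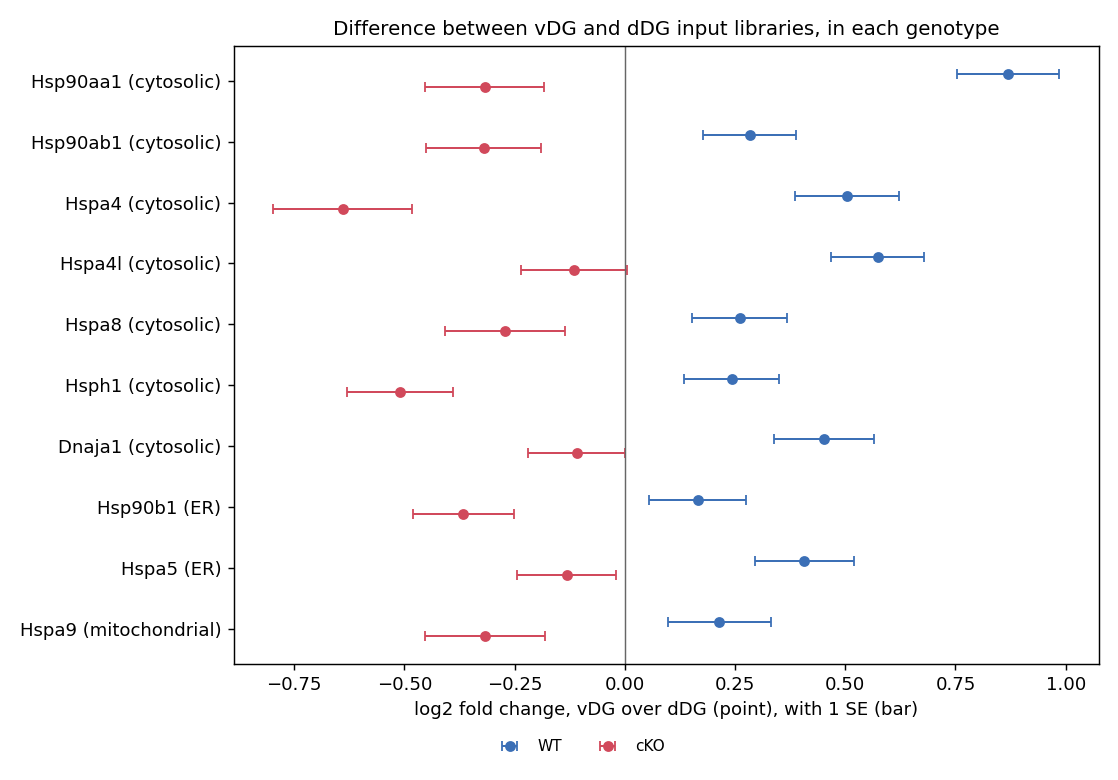
Log2 fold change of vDG over dDG input (points) with 1 SE (bars) for each chaperone gene, in WT (blue) and in cKO (red). Every WT point lies right of 0, from 0.16 to 0.87, and every cKO point left of it, from -0.64 to -0.11.

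The gap between the regional differences (cKO change in vDG minus cKO change in dDG) was negative for all 10 members, from -1.19 (SE 0.20) for Hsp90aa1 and -1.15 (SE 0.23) for Hspa4 to -0.53 for Hspa8, Hsp90b1 and Hspa9. Its median was -0.58 against -0.01 over all 16306 genes. It contains the contrasts that picked the genes and is given as a description. Over all genes, edgeR called 0 in either direction at FDR under 0.05 (0% higher, 0% lower), with 2010 at an unadjusted p under 0.05, while DESeq2 called 256 genes, 7 of them members.

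Most cytosolic members were enriched on the tagged ribosomes. Enrichment was called at FDR under 0.05 with a log2 fold change of at least 0.32, depletion at less than 0.5 fold. In WT 5 members were called enriched, all cytosolic (7.72% of all 15011 genes enriched, 11.4% depleted). In cKO 6 were called, of which 5 were cytosolic and 1 was Hspa5 (11.4% of all 15126 genes enriched, 10.7% depleted). WT IP pools stood above every WT input pool for 6 members (20.9% of all genes), and cKO IP pools above every cKO input pool for 9 (32% of all genes). The members' median log2 fold change was 0.36 in WT and 0.42 in cKO, against 0.00 and -0.03 over all genes. The IP and input libraries here are also those of the genotype comparisons.

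Hspa8 had the strongest enrichment in WT, 1606, 1335 and 1385 CPM in IP against 1000, 960 and 887 in input (0.54, SE 0.12, edgeR FDR 0.00447). Its FDR stayed between 0.000143 and 0.0289 under all alternatives. Without WT vDG IP replicate 2 Hspa4 ranked above it, at 0.62 against 0.60. In cKO the Hspa8 pools overlapped, with 671 and 917 CPM in IP and 494 and 687 in input (0.40, SE 0.16, edgeR FDR 0.0827). The 3 Hsp110 genes passed in both genotypes. Hspa4 gave 0.48 (SE 0.15, edgeR FDR 0.0354) in WT and 0.68 (SE 0.14, edgeR FDR 0.00407) in cKO. For Hspa4l and Hsph1 the WT values were 0.43 and 0.47 and the cKO values 0.56 and 0.52.

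Of the Hsp90 genes, Hsp90ab1 passed in both genotypes, at 0.39 (SE 0.11, edgeR FDR 0.0206) in WT and 0.45 (SE 0.13, edgeR FDR 0.0226) in cKO. Hsp90aa1 passed in cKO (0.53, SE 0.13, edgeR FDR 0.0111), and in WT 1 of its 3 IP pools lay within the range of the input and the other 2 above it (0.33, SE 0.15, edgeR FDR 0.133). Dnaja1 passed in neither, with 0.11 (SE 0.14) in WT and 0.22 (SE 0.09) in cKO.

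The ER genes stood at the level of whole tissue in WT IP. Hsp90b1 had a log2 fold change of -0.06 (SE 0.13, edgeR FDR 0.777) and Hspa5 of 0.07 (SE 0.16, edgeR FDR 0.789). In cKO Hsp90b1 gave 0.25 (SE 0.11, edgeR FDR 0.0990) and Hspa5 gave 0.40 (SE 0.10, edgeR FDR 0.0110), with 132 and 130 CPM in IP against 101 and 93.8 in input. Whether the ER genes differed between genotypes in this respect was given above as the change by fraction, 0.36 (SE 0.22) for Hspa5 and 0.34 (SE 0.19) for Hsp90b1. Hspa9 gave 0.33 (SE 0.14, edgeR FDR 0.0935) in WT and 0.25 (SE 0.13, edgeR FDR 0.173) in cKO.

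Enrichment depended on scaling. With library size alone in place of TMM factors, the median of all genes moved from 0.00 to -0.13 in WT and from -0.03 to -0.20 in cKO. The share of depleted genes among all calls rose from 59.6% to 79.7% in WT and from 48.6% to 72.9% in cKO, and 1 member in WT and 3 in cKO were called enriched. Dnaja1 and Hspa5 turned to -0.02 and -0.06 in WT under that scaling. In the regional comparison of cKO, the share of lower calls went from 49.7% to 34.7%. Leaving out a pool gave 1 to 6 enriched members in WT, with 1 without WT vDG input replicate 3, and 4 to 7 in cKO.

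**Figure D4:**
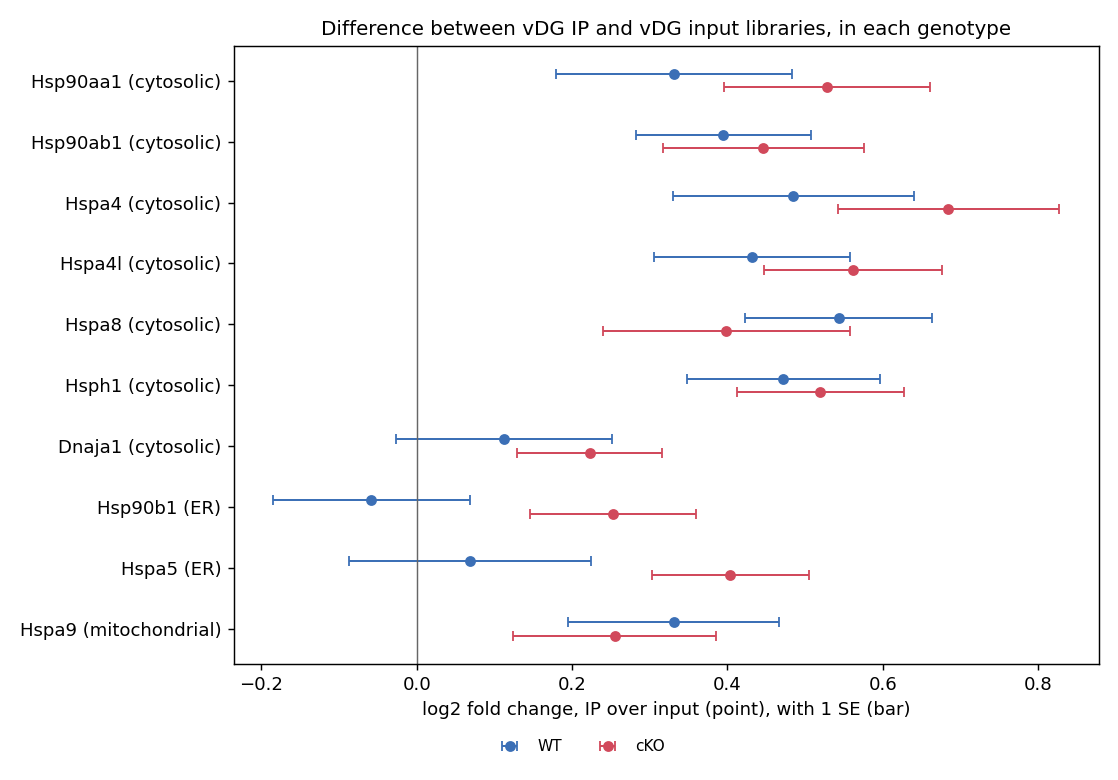
Log2 fold change of vDG IP over vDG input (points) with 1 SE (bars) for each chaperone gene in WT (blue) and cKO (red). The cytosolic genes other than Dnaja1 lie between 0.33 and 0.68, and the WT points of the ER genes Hsp90b1 and Hspa5 lie at -0.06 and 0.07.

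Across the 15 libraries the members' log2 CPM varied together. Pearson's r for the 45 pairs of members ran from 0.526 (Dnaja1 with Hsp90b1) to 0.984 (Hsp90ab1 with Hspa8), with a median of 0.831. Hspa4 and Hsph1 correlated at 0.980. The points share 6 groups, the IP and input fractions of the same tissue and the depth of each library, so these values describe the data and were not tested. The members had also been chosen by their change between genotypes in these libraries, a choice that favours positive r. Of 10362 other genes with a mean of at least 5 CPM, the 5 whose log2 CPM followed the members' mean most closely were Kif3a (r = 0.973), a kinesin motor subunit, Pfkp (0.972), the platelet-type phosphofructokinase of glycolysis, Uba1 (0.969), the main ubiquitin-activating enzyme, Vcp (0.968), an ATPase that extracts ubiquitylated proteins, and Ap2b1 (0.967), a subunit of the clathrin adaptor AP-2.

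Other chaperone genes are given here by list, beside the share of all genes. The members were picked by their change, so the sizes of the 2 sets are not compared. Of 153 other chaperone genes in 13 lists, 141 were tested in vDG IP and edgeR called 0 of them in cKO against WT, with a median log2 fold change of -0.05. In vDG input 6 of 142 were called lower and 0 higher (2.33% and 0.108% of all genes), with a median of -0.03, and in dDG input 0 of 142 were called, with a median of -0.08.

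The 6 lower genes of the vDG input were mostly ER folding factors, of which 5 of 24 were called. By the rule for named genes these were Canx, the lectin chaperone calnexin, from 230 ± 2.34 CPM (SD, n = 3) in WT to 147 ± 9.0 (SD, n = 2) in cKO (-0.66, SE 0.12, edgeR FDR 0.00656), and the disulfide isomerases Pdia4 (-0.64, SE 0.17, edgeR FDR 0.0405), Pdia6 (-0.62, SE 0.15, edgeR FDR 0.0256) and Pdia3 (-0.59, SE 0.13, edgeR FDR 0.0201). The fifth, named after its values were seen, was Calr, the lectin chaperone calreticulin (-0.57, SE 0.14, edgeR FDR 0.0240). In vDG IP the 24 ER folding genes had a median of -0.28, with 20 below 0 and none called. In vDG input 21 of the 24 were below 0 (median -0.33), and in dDG input also 21 (median -0.16), with none called there. The ER stress sensors and factors had medians of -0.13 in IP and -0.07 in vDG input, with 0 of 10 called in either.

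Among the classical heat-inducible genes, 1 of 12 was called in vDG input. Hspa1a, an inducible Hsp70, measured 5.66, 5.43 and 5.42 CPM in WT and 2.57 and 2.91 in cKO (-1.02, SE 0.24, edgeR FDR 0.0249). In vDG IP Hspa1a had 8.05, 6.34 and 9.19 CPM in WT and 5.39 and 6.35 in cKO (-0.38, SE 0.24), and its near-identical neighbour Hspa1b gave -0.84 (SE 0.35) in IP and -0.55 (SE 0.32) in vDG input. These 2 genes share most of their sequence, so their separate counts are uncertain. Dnajb1, the inducible J-domain partner of Hsp70, was level with 0.02 (SE 0.15) in IP and 0.14 (SE 0.15) in vDG input. Hspb1, the small heat shock protein Hsp27, had 0 to 13 reads in any library. The transcript of Hsf1, the factor itself, gave 0.37 (SE 0.14) in IP and 0.33 (SE 0.14) in vDG input. It was above WT without overlap in both, as for 12% and 15.7% of all genes, and was not called. In dDG input Hspa1a, Hspa1b, Dnajb1 and Hsf1 gave -0.02, 0.73, -0.37 and 0.17, none of them called.

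The TRiC chaperonin, the ring that folds actin and tubulin, had 8 of 8 tested subunit genes below 0 in both vDG fractions (medians -0.24 and -0.21) and 5 of 8 in dDG input (median -0.05), with none called in any of them. Over all genes 50.2%, 48.6% and 53.6% were below 0 in vDG IP, vDG input and dDG. Prefoldin, which hands clients to TRiC, had 6 of 6 genes above 0 in vDG input (median 0.20). In vDG IP 4 of 6 were above 0 (median 0.11) and in dDG input 1 of 6 (median -0.13), also with none called in any of them. J-domain cochaperones (medians -0.01 and 0.00 in the IP and input), Hsp90 cochaperones (0.01 and 0.03) and nucleotide exchange and partner factors (0.03 and 0.09) had 0 called. Mitochondrial chaperones and proteases other than Hspa9 also had 0 of 15 called, with medians of 0.04 and 0.06. Nor was a gene called among the other Hsp70 and Hsp110 genes in IP (median -0.31), and in vDG input Hspa1a was the only one of 9 (median -0.37). Trap1, the mitochondrial Hsp90, gave 0.07 (SE 0.16) in IP and -0.47 (SE 0.17) in vDG input.

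**Figure D5:**
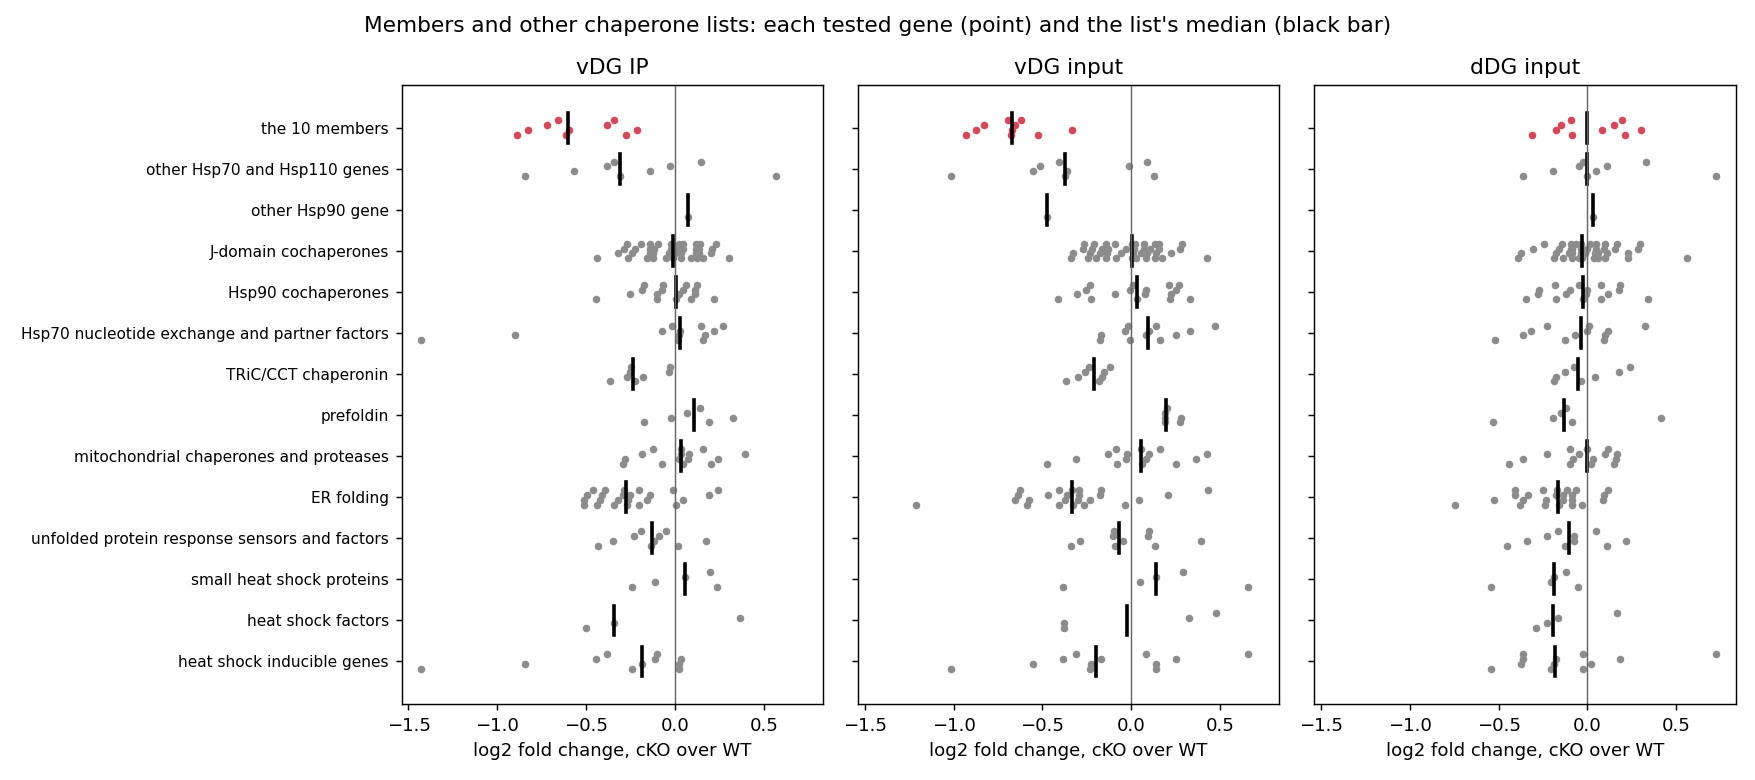
Log2 fold change of cKO over WT for the 10 chaperone genes (red) and for every tested gene of the other chaperone lists (grey), with the median of each list (black bar), in the IP and the input of vDG and in the input of dDG. The members' medians lie at -0.60 and -0.67 in the vDG, those of the J-domain and Hsp90 cochaperones near 0.

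Other chaperones followed the IP and regional comparisons in their own ways, given here for called genes with a mean of at least 5 CPM, below which some called genes had larger differences. In WT, Hspa2, an Hsp70 gene abundant in testis and brain, was enriched on ribosomes from 85.4 ± 8.90 to 165 ± 3.10 CPM (SD, n = 3 each; 0.89, SE 0.12, edgeR FDR 9.44e-05), followed by Pfdn4, Dnajc6 and Uggt1 (0.58 to 0.60). The small heat shock genes Hspb8 and Cryab were depleted (-2.74 and -2.70). Cryab encodes alpha-B crystallin, known for its level in glia, and was depleted in cKO as well (-2.97). There Hspa2, Trap1, Dnajc16 and Clpx led the enriched genes (0.65 to 0.83). In WT vDG against dDG input, Hspa12a, Dnajc21, Tomm34 and Dnajc6 were highest within that limit (0.49 to 0.82) and Atf6, Pfdn5, Dnajc1 and Dnajb5 lowest (-0.83 to -0.45). In cKO Chac1, Dnajb1, Dnajb2 and Tomm34 were higher in vDG (0.56 to 1.30) and Atf6, Dnajc1, Bag4 and Pdia3 lower (-1.05 to -0.44).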

How the data were processed

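Ribosome-bound RNA (IP) and whole-tissue RNA (input) of dentate gyrus were amplified and sequenced as 15 libraries. Per the labels and the study's methods, the authors aligned reads to mm10 with STAR 2.4.2a, removed duplicates with SAMtools 0.1.19-444, and counted reads per gene with HTSeq, and the deposited values are raw counts. There were no molecular identifiers, and removing duplicates can flatten abundant genes. SEs and p-values measure the spread between pools. Reads on no gene (24.7% to 37.8%) were left out of library sizes. The authors' comparison columns and 25 per-library columns matched to no sample were not used.

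Counts were filtered (filterByExpr), scaled by TMM and tested with edgeR 4.0.16 (quasi-likelihood, Benjamini-Hochberg over all genes tested) in R 4.3.3, each comparison on its own groups, with DESeq2 1.42.0 as an alternative. CPM values are TMM-scaled. The script was tested on simulated data. Named genes were the members, the inducible genes Hspa1a, Hspa1b, Dnajb1 and Hspb1, Hsf1, Htr4, the 5 most correlated genes, and up to 4 called chaperones per direction with at least 5 CPM. Members and lists were chosen with earlier results of these data known.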

Additional observations from a re-analysis of the deposited data

Results flagged for a closer look

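For 3 members the vDG and dDG input pools did not overlap in either genotype and lay in opposite order in WT and cKO, as for 1.12% of all genes tested in both. The cKO change in vDG minus that in dDG was -1.15 (SE 0.23, log2) for Hspa4, -0.56 (SE 0.17) for Dnaja1 and -0.54 (SE 0.16) for Hspa5. This value holds the contrasts that picked the genes, so it is a description, and calls of members in it are no independent evidence. By edgeR no member was called in it, and no test independent of that choice was made. Groups of 2 and 3 libraries are too small for a check of single outlying samples.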

How the results depend on the processing

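The members' median in cKO vDG stayed below 0 under every alternative, from -0.76 to -0.46 in IP and from -0.82 to -0.56 in input, while counts of calls moved. In vDG IP, 60 genes and 2 members were called, against 357 and 6 by DESeq2, 115 and 5 with library size alone, 379 and 6 with no count filter, 470 and 6 with all 15 libraries in 1 fit, and 0 and 0 at FDR 0.05. Leaving out a pool gave 0 to 184 genes and 0 to 5 members. In vDG input, 385 genes became 626 by DESeq2, 660 with no filter, 140 with all 15 libraries and 687 at FDR 0.1, and 6 to 638 genes and 0 to 9 members without a pool. In dDG input, 5 genes became 188, 378, 0 and 17 under the same settings and 0 to 130 without a pool, where the members' median ran from -0.10 to 0.16.

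For IP against input in WT, 2870 genes became 1682 with 10 counts in every library, and 5 members became 3. Library size alone gave 1 member in WT and 3 in cKO, where the median was 0.26. Without a pool 1 to 6 members were called in WT, and in cKO 4 to 7 members and 1894 to 3702 genes (3343 with all pools), with medians of 0.28 to 0.65. For vDG against dDG in WT, 5 members became 3 with all 15 libraries and 3 to 5 without a pool. In cKO, 3 members became 5 with no filter, 2642 genes became 1360 with all 15 libraries, and without a pool there were 0 to 7 members, 1428 to 3084 genes and medians of -0.49 to -0.13. Genotype by fraction called 12 genes with no filter. Genotype by region called 256 genes and 7 members by DESeq2, 362 and 5 with no filter, 12 and 2 at FDR 0.1, and 0 to 48 and 0 to 3 without a pool, with medians of -0.78 to -0.51.

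Replicate numbers were shared between groups, but same-numbered WT libraries did not all deviate together (r of 0.46, -0.16 and -0.33 for IP and input, and 0.38, -0.11 and 0.22 for vDG and dDG). In cKO, with 2 pools, r was 0.44 for IP and input and 0.16 for vDG and dDG, too few pools to decide the pairing. IP and input can come from 1 lysate, but no source used here says that equal numbers mark it. With the replicate number as a block, 137 genes were called in dDG input, 7 members for vDG against dDG in cKO, and 11 genes and 2 members for genotype by region.

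Single members changed sign as follows. Library size alone turned Dnaja1 to -0.020 and Hspa5 to -0.062 in WT IP against input. Without a pool, values there ran from -0.030 to 0.25 for Dnaja1, -0.13 to 0.20 for Hspa5 and -0.16 to 0.036 for Hsp90b1. In dDG input they ran from -0.27 to 0.081 for Hsp90ab1, -0.13 to 0.47 for Hspa4 and -0.071 to 0.23 for Hsph1. For genotype by fraction they ran from -0.0095 to 0.43 for Hsp90aa1, -0.11 to 0.25 for Hsp90ab1, -0.36 to 0.15 for Hspa8, -0.044 to 0.18 for Hsph1 and -0.21 to 0.13 for Hspa9. The cause of these shifts was not tested. With 2 cKO pools per group, leaving out 1 assumes that the lone pool varies like the others.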
